A study of Mus musculus with 22 samples.

Results

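Macrophages sense bacterial lipopolysaccharide (LPS) through a Toll-like receptor and answer through several kinase cascades, among them that of the p38 mitogen-activated protein kinases. The transcripts described here are those of 10 genes of this cascade: the p38 kinases Mapk14 (p38α), Mapk11 (p38β) and Mapk13 (p38δ), the upstream kinases Map2k3 (MKK3), Map2k6 (MKK6) and Map3k8 (TPL2), and 4 kinases that stand beside MK2 and MK3 as effectors, Mknk1 (MNK1), Mknk2 (MNK2), Rps6ka4 (MSK2) and Rps6ka5 (MSK1). Members were chosen by name and not by a measured value, though with earlier results of these data known. Every probe that passed the filter on dim probes and whose RefSeq accession belongs to one of these symbols was taken. This gave 11 probes, 2 of them for Mapk14. The accessions were NM_001168514 (Mapk14), NM_011161 (Mapk11), NM_011950 (Mapk13), NM_008928 (Map2k3), NM_011943 (Map2k6), NM_007746 (Map3k8), NM_021461 (Mknk1), NM_021462 (Mknk2), NM_019924 (Rps6ka4) and NM_153587 (Rps6ka5). Member probes before the filter were not counted. On the array as a whole, the filter left 18355 named genes with 23885 probes.

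RNA came from bone marrow-derived macrophages (BMDM) of C57BL/6 mice, labelled as male and aged 10 to 14 weeks, grown with the macrophage growth factor M-CSF. The mice were wild-type (wt), lacked the p38-activated kinase MK2 (MK2-/-) or lacked both MK2 and its close relative MK3 (MK2/3-/-), so that no group lacked MK3 alone. Cells of each genotype stayed for 360 min in medium or in 100 ng/ml LPS. This gave 3 arrays of LPS-treated and 4 of medium-treated wt BMDM, 4 and 4 of MK2-/- BMDM, and 4 and 3 of MK2/3-/- BMDM.

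In the p38 cascade, receptor-proximal kinases activate MKK3 and MKK6, which phosphorylate the p38 kinases. The p38 kinases in turn activate MK2 and MK3, the MNK kinases, which phosphorylate the cap-binding translation factor eIF4E, and the MSK kinases, which phosphorylate CREB and histone H3 in the nucleus. The MNK and MSK kinases are also reached by the ERK kinases, and TPL2 is the kinase through which LPS activates the ERK branch in macrophages. In bulk RNA, a transcript carried by fewer cells and a transcript with fewer copies per cell cannot be told apart.

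Signal of the deleted genes was lower in the genotypes labelled as lacking them, by amounts that differed with treatment. The mean log2 signal of Mapkapk2, which encodes MK2, was 14.89 ± 0.55 (SD, n = 3) in LPS-treated wt BMDM against 11.61 ± 0.30 (n = 4) in MK2-/- and 11.02 ± 0.16 (n = 4) in MK2/3-/- BMDM, and Mapkapk3, which encodes MK3, read 11.94 to 12.23, 11.92 to 12.57 and 7.65 to 8.55. In medium the means in wt, MK2-/- and MK2/3-/- BMDM were 11.9, 8.88 and 8.44 for Mapkapk2 and 13.13, 12.9 and 11.16 for Mapkapk3. Macrophage markers averaged 14.80 to 16.49 on the log2 scale over the 22 arrays. Some arrays stood apart. The third replicates of LPS-treated and medium-treated MK2-/- BMDM had mean signals of Y-linked genes of 2.07 and 2.33, whereas the other arrays had 6.86 to 8.82, which goes against the label male. The LPS-treated one of this pair also had 2927 marked spots, against 115 to 261 elsewhere, and the highest T cell marker mean (8.62). Medium-treated wt replicate 4 had a mean of 12.76 for LPS-induced reference genes, above the other arrays in medium. Each genotype was hybridised on a slide of its own, so in a direct comparison of genotypes the slide and the genotype cannot be told apart. LPS-treated and medium-treated samples of a genotype shared a slide.

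LPS moved most of the cascade in all 3 genotypes. In wt BMDM, 7 of 10 members passed the test (limma, adjusted over 28054 probes), 3 higher and 4 lower, where 42.1% of all tested probes did (18.4% higher, 23.8% lower). In MK2-/- BMDM 8 of 10 passed, 3 higher and 5 lower, against 45.5% of all probes (17.6% higher, 27.9% lower), and in MK2/3-/- BMDM 7 of 10, 3 higher and 4 lower, against 48.7% (20.2% higher, 28.5% lower). Map3k8, Mapk11 and Rps6ka4 rose and Mapk14, Map2k6, Mknk2 and Rps6ka5 fell in each genotype, and Mknk1 also passed, as lower, in MK2-/- BMDM. Mapk13 and Map2k3 did not pass in any genotype. Without the pair of MK2-/- arrays with low Y-linked signal, 8 of 10 members passed in MK2-/- BMDM as well, with Mapk14 at -2.91, Mknk2 at -4.62 and Map3k8 at 3.40. The median log2 difference over the 10 members was -0.28, -0.45 and -0.26 in wt, MK2-/- and MK2/3-/- BMDM, beside -0.06, -0.04 and -0.02 over all probes. Scaling each array by its 75th percentile moved the medians over all probes to 0.27, 0.26 and 0.26 and the share of calls that were higher from 43.6, 38.8 and 41.4% to 59.6, 52.6 and 53.3%, and turned the direction of no called member. Cell type markers moved with LPS too: of 5 macrophage markers, 1 was higher (Fcgr1) and 2, 3 and 3 lower in wt, MK2-/- and MK2/3-/- BMDM, with median log2 differences of -0.68, -1.01 and -1.04, and of 3 dendritic cell markers 1, 1 and 2 were higher and 0, 1 and 0 lower, with medians of 0.70, 1.07 and 3.49. Their part in the members' values was not tested.

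**Figure D1:**
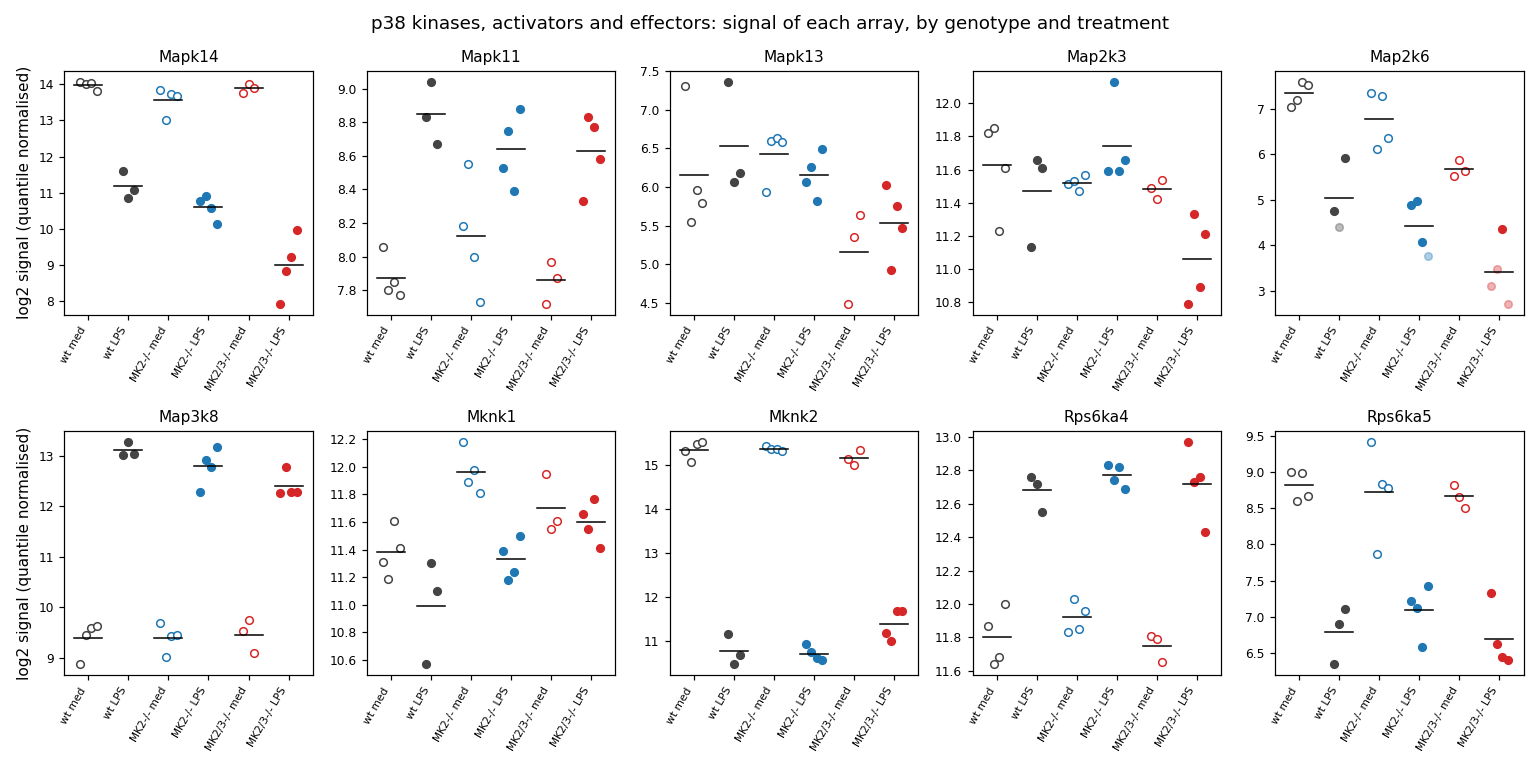
Log2 signal after quantile normalisation of each member's leading probe (vertical axis, a scale of its own in each panel) on each of the 22 arrays, by genotype and treatment (med, medium; open circles, medium; filled circles, LPS; pale circles, not well above background; bars, group means). Mapk14, Map2k6, Mknk2 and Rps6ka5 lie lower with LPS in each genotype, Map3k8, Mapk11 and Rps6ka4 higher, and the 4 LPS-treated MK2/3-/- arrays have the lowest Mapk14 values, 7.92 to 9.95.

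Promoter sequence is shown for some of the members that moved with LPS: Mapk14, Mknk2 and Rps6ka5, which fell, and Rps6ka4, which rose. The lines give the 250 bases before the start of transcription in RefSeq (GRCm38.p6), 5′ to 3′ on the gene's strand, for Mapk14 at chr17:28691092-28691341 (plus strand), Mknk2 at chr10:80676294-80676543 (minus), Rps6ka5 at chr12:100725121-100725370 (minus) and Rps6ka4 at chr19:6840628-6840877 (minus). Capitals mark matches to any of 7 short motifs searched on both strands: the GC box GGGCGG, the AP-1 motif TGANTCA, the CRE motif TGACGTCA, the E-box CACGTG, the ETS motif CCGGAAG, the FOXO motif GTAAACA and the κB motif.
Mapk14: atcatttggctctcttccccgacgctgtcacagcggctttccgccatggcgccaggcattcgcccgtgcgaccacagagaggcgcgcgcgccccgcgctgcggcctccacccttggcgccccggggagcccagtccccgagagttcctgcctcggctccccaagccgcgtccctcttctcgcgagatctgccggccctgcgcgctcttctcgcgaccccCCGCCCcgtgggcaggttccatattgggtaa
Mknk2: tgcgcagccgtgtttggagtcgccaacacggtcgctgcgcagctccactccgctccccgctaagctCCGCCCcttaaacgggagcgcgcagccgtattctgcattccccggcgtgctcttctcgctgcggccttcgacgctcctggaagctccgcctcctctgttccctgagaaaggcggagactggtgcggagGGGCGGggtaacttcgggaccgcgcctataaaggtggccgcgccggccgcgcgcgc
Rps6ka5: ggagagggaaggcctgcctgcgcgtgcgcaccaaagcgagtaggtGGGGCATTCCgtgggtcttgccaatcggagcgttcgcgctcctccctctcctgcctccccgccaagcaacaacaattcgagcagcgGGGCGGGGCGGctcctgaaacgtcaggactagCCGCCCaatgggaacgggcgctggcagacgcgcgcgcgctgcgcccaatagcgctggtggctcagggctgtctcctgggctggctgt
Rps6ka4: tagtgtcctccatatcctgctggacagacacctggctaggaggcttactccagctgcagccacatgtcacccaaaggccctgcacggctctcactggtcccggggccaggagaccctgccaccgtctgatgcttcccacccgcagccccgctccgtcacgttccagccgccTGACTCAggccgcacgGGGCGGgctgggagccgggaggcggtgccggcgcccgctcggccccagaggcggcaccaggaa
Windows of 9 members were searched, 13 in all, since Mapk14, Map2k6 and Mknk1 have several starts. No window of Map3k8 was searched. A GC box stood in 8 of the 13, where 32.7% of all 32851 windows of that length hold it. The Mapk14 window that is not shown held none of the motifs searched. Among the members' windows searched, the κB motif stood only in that of Rps6ka5, which fell with LPS, and in 7.25% of all windows. An AP-1 match stood in the Rps6ka4 window, which rose, and in 1 window of Map2k6, which fell, and in 6.75% of all windows. The 2 matches of the GC box furthest upstream in Rps6ka5 overlap. The CRE, ETS and FOXO motifs stood in none of the members' windows and in 1.55, 6.91 and 3.17% of all, and the Mknk1 windows held an E-box, as 6.02% of all did.

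Among the p38 kinases, Mapk14, the isoform best known from inflammatory signalling, fell most. Its leading probe read 14.07, 14.02, 14.04 and 13.83 on the log2 scale in medium-treated wt BMDM and 11.61, 10.84 and 11.06 with LPS, a log2 difference of -2.82 (SE 0.34, adjusted p = 1.92e-06), which is 7.05-fold. In MK2-/- BMDM it read 13.84, 13.01, 13.73 and 13.69 in medium and 10.78, 10.90, 10.56 and 10.14 with LPS (-2.97, SE 0.31, adjusted p = 1.96e-07). In MK2/3-/- BMDM it read 13.75, 14.01 and 13.91 in medium and 7.92, 8.82, 9.22 and 9.95 with LPS (-4.91, SE 0.34, adjusted p = 9.7e-10), which is 30.1-fold. Treated and untreated arrays did not overlap in any genotype, and all 4 LPS-treated MK2/3-/- arrays lay below every other array.

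Mapk11, which encodes the closest relative of p38α, rose by smaller steps. It went from a mean of 7.87 ± 0.13 (SD, n = 4) to 8.85 ± 0.18 (n = 3) in wt BMDM, a log2 difference of 0.98 (SE 0.19, adjusted p = 0.000378). The difference was 0.52 (SE 0.18, adjusted p = 0.0202) in MK2-/- BMDM, where the 2 treatments overlapped, since medium replicate 2 read 8.55 and LPS replicates 1 and 3 read 8.53 and 8.39. In MK2/3-/- BMDM it was 0.77 (SE 0.19, adjusted p = 0.00215) without overlap. The MK2-/- call was lost in 4 of the 22 fits that left out 1 array: without LPS replicate 2 (log2 difference 0.48, adjusted p = 0.0522), LPS replicate 4 (0.44, 0.0702), medium replicate 3 (0.48, 0.0536) and medium replicate 4 (0.39, 0.0879).

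Mapk13, the p38δ isoform, had no call in any comparison. Its log2 difference with LPS was 0.38 (95% interval -0.47 to 1.23) in wt, -0.27 (-1.06 to 0.51) in MK2-/- and 0.38 (-0.47 to 1.23) in MK2/3-/- BMDM, and each interval reaches past a 2-fold change on one side. Replicate 1 was the highest wt array under either treatment, at 7.31 in medium and 7.36 with LPS, while the other wt arrays read 5.55 to 6.18.

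Of the upstream kinases, Map3k8 rose most among all members. In wt BMDM it read 8.88, 9.46, 9.59 and 9.64 in medium and 13.02, 13.27 and 13.04 with LPS, a difference of 3.72 (SE 0.24, adjusted p = 1.05e-09), which is 13.2-fold. It rose by 3.38 (SE 0.22, adjusted p = 4.47e-10) in MK2-/- BMDM and by 2.94 (SE 0.24, adjusted p = 7.89e-09) in MK2/3-/- BMDM, 10.4-fold and 7.68-fold, with no overlap of treatments. Map2k6 went the other way. It read 7.05, 7.19, 7.60 and 7.54 in medium-treated wt BMDM and 4.76, 4.41 and 5.93 with LPS, a difference of -2.31 (SE 0.42, adjusted p = 0.000189), and the differences in MK2-/- and MK2/3-/- BMDM were -2.36 and -2.27. With LPS the Map2k6 probe was dim: it was well above background on 2 of 3 wt, 3 of 4 MK2-/- and 1 of 4 MK2/3-/- arrays. With normexp background correction the 3 differences shrank to -1.19, -1.02 and -0.64 and stayed past the threshold.

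Map2k3, which encodes the other p38-specific activator, held a narrow range. Its differences with LPS were -0.16 (95% interval -0.56 to 0.24), 0.22 (-0.15 to 0.60) and -0.42 (-0.83 to -0.02, adjusted p = 0.0765) in wt, MK2-/- and MK2/3-/- BMDM. All 3 intervals lie within a 2-fold change. The last of these passed the threshold when LPS-treated MK2/3-/- replicate 2 was left out (-0.52, adjusted p = 0.0444).

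The effectors split by family member. Mknk2, whose product phosphorylates eIF4E with high basal activity, had the largest fall of all members in wt and MK2-/- BMDM. It read 15.30, 15.07, 15.47 and 15.51 in medium-treated wt BMDM and 11.16, 10.48 and 10.68 with LPS, a difference of -4.56 (SE 0.19, adjusted p = 2.77e-11), which is 23.6-fold. In MK2-/- BMDM the arrays read 15.31 to 15.42 in medium and 10.57 to 10.93 with LPS (-4.64, SE 0.18, adjusted p = 4.04e-12), and in MK2/3-/- BMDM 15.00 to 15.32 and 11.01 to 11.68 (-3.76, SE 0.19, adjusted p = 5.58e-11), which is 13.5-fold. Its paralogue Mknk1 moved little: -0.39 (adjusted p = 0.0886) in wt, -0.64 (SE 0.17, adjusted p = 0.00376) in MK2-/- and -0.10 (adjusted p = 0.673) in MK2/3-/- BMDM. Only the second of these passed, and with 75th percentile scaling it did not (-0.46, adjusted p = 0.052). The wt value was -0.55 (adjusted p = 0.0385) without LPS-treated wt replicate 2 and -0.18 without replicate 1.

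The MSK kinases went in opposite directions. Rps6ka4 (MSK2) rose by 0.88 (SE 0.14, adjusted p = 6.64e-05), 0.85 (SE 0.13, adjusted p = 2.77e-05) and 0.97 (SE 0.14, adjusted p = 1.33e-05) in wt, MK2-/- and MK2/3-/- BMDM. Every medium array lay at 11.64 to 12.03 and every LPS array at 12.43 to 12.97. Rps6ka5 (MSK1) fell, with log2 differences of -2.03 (SE 0.31, adjusted p = 2.82e-05), -1.63 (SE 0.28, adjusted p = 8.85e-05) and -1.96 (SE 0.31, adjusted p = 2.77e-05). Its medium arrays read 7.86 to 9.41 and its LPS arrays 6.35 to 7.43, so that neither gene's treatments overlapped in any genotype.

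**Figure D2:**
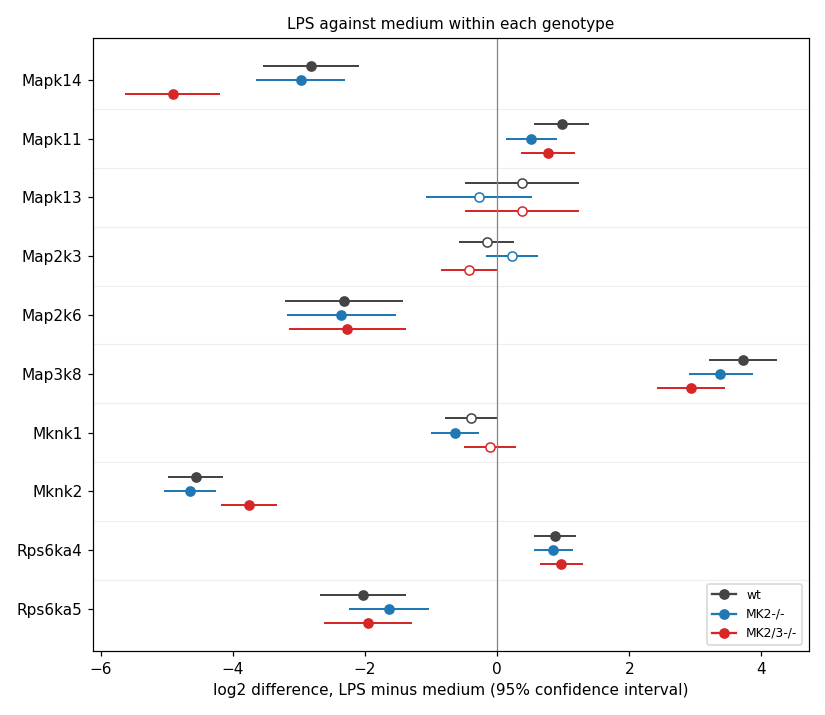
Log2 difference between LPS and medium within each genotype (horizontal axis) for the leading probe of each member, with the 95% confidence interval of the limma fit (filled, passed the test; open, did not). Map3k8 lies at 2.94 to 3.72 and Mknk2 at -4.64 to -3.76, and the MK2/3-/- value of Mapk14 (-4.91) lies apart from the wt (-2.82) and MK2-/- (-2.97) values.

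With LPS, loss of MK2 alone left none of the 10 members past the test against wt (limma), where 11.6% of all probes passed, and 0 members had an unadjusted p under 0.05 in limma or in the methods' t-test. The largest of the 10 differences were Map2k6 at -0.61 (95% interval -1.49 to 0.26) and Mapk14 at -0.58 (-1.28 to 0.13). The intervals of Rps6ka4 (-0.21 to 0.39), Mapk11 (-0.61 to 0.19), Mknk2 (-0.47 to 0.35), Mknk1 (-0.04 to 0.72), Map2k3 (-0.13 to 0.68), Map3k8 (-0.82 to 0.18) and Rps6ka5 (-0.34 to 0.95) exclude 2-fold differences either way.

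Loss of MK2 and MK3 together left 5 of 10 members past the test against wt with LPS, 2 higher and 3 lower, where 23.7% of all probes passed (8.87% higher, 14.9% lower). Mapk14 was at -2.19 on the log2 scale (SE 0.34, adjusted p = 0.000248), which is 4.57-fold, Map2k6 was at -1.62 (SE 0.42, adjusted p = 0.00914) and Map3k8 at -0.71 (SE 0.24, adjusted p = 0.0383). Mknk1 and Mknk2 were higher, each by 0.61 (SE 0.18, adjusted p = 0.0204, and SE 0.19, adjusted p = 0.0281). So the p38α transcript and the transcripts of an activating and an upstream kinase were lower, and those of both MNK kinases higher. The Mapk14 arrays of the 2 genotypes did not overlap (7.92 to 9.95 against 10.84 to 11.61), nor did those of Map3k8 (12.26 to 12.77 against 13.02 to 13.27) and Mknk1 (11.41 to 11.77 against 10.57 to 11.30), while Mknk2 overlapped (11.01 to 11.68 against 10.48 to 11.16).

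The Mapk14 difference was the firmest of the 5: it stayed past the threshold in all 22 fits that left out 1 array. The Map3k8 call was lost without any 1 of 6 arrays, which were LPS-treated wt replicates 1, 2 and 3 (log2 difference -0.75, -0.63 and -0.74) and LPS-treated MK2/3-/- replicates 1, 3 and 4 (-0.66, -0.67 and -0.67). The Mknk2 call was lost without wt replicates 2 or 3 (0.47 and 0.57) or MK2/3-/- replicates 3 or 4 (0.52 each), the Mknk1 call without wt replicate 1 (0.40) and the Map2k6 call without wt replicate 3 (-1.18), all LPS-treated. Without the pair of low Y-linked MK2-/- arrays, which only enter the shared spread here, Map3k8 had an adjusted p of 0.0514. The Map2k6 value moved to -0.38 with normexp and to -0.71 with scaling by the 75th percentile, and neither passed. With the latter scaling Mknk1 (0.36) and Mknk2 (0.38) did not pass either, Map3k8 was at -1.11, and Map2k3 passed (-0.76, adjusted p = 0.0124). In the methods' t-test none of the 10 members passed after Benjamini-Hochberg adjustment, and 4 had an unadjusted p under 0.05.

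Against MK2-/- BMDM with LPS, which compares cells that differ in MK3, 3 of 10 members passed, 1 higher and 2 lower, where 13.4% of all probes did (7.41% higher, 6% lower). Mapk14 was lower in MK2/3-/- BMDM (log2 difference -1.62, SE 0.31, adjusted p = 0.00195), which is 3.07-fold, and its arrays did not overlap (7.92 to 9.95 against 10.14 to 10.90). Map2k3 was lower as well (-0.69, SE 0.18, adjusted p = 0.0156), with arrays at 10.79 to 11.33 against 11.59 to 12.13. Mknk2 was higher by 0.67 (SE 0.18, adjusted p = 0.0181), with arrays at 11.01 to 11.68 against 10.57 to 10.93. Without the pair of low Y-linked MK2-/- arrays all 3 still passed (-1.63, -0.74 and 0.64). The Mknk2 call was lost when medium-treated wt replicate 4 was left out as well (0.64, adjusted p = 0.0556). It was also lost with 75th percentile scaling (0.66, adjusted p = 0.0501). The Map2k3 call was lost without LPS-treated MK2-/- replicate 2 (-0.56, adjusted p = 0.0635), and the Mknk2 call without LPS-treated MK2/3-/- replicate 3 (0.58, adjusted p = 0.0572) or replicate 4 (0.58, adjusted p = 0.0546). No member passed in the methods' t-test after adjustment here either, and 4 had an unadjusted p under 0.05.

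Some markers of other cell types differed in LPS-treated MK2/3-/- BMDM. The mean of the dendritic cell list, Flt3, Zbtb46 and Xcr1, was 7.54 to 8.27 in these 4 arrays, 6.44 to 6.95 in LPS-treated wt and 6.14 to 6.36 in LPS-treated MK2-/- BMDM, with 1 of 3 genes higher than in wt and 2 of 3 higher than in MK2-/- BMDM. The B cell list averaged 5.90 to 6.20, 5.41 to 6.23 and 4.94 to 5.38 in the same order, with 1 of 4 genes higher than in wt and 2 of 4 higher than in MK2-/- BMDM. Of the T cell list 1 of 3 tested genes (Cd5) was higher in both comparisons, and of the neutrophil list 0 of 3 against wt and 1 of 3 (Elane) against MK2-/- BMDM. Of all probes, 8.87% were higher in MK2/3-/- than in wt BMDM with LPS, and 7.41% higher than in MK2-/- BMDM. The counts in these short lists were not tested against those shares. None of the 5 macrophage and 3 fibroblast markers tested passed in these comparisons, where 23.7 and 13.4% of all probes did. The fibroblast list nevertheless averaged 7.73 to 11.25 in LPS-treated MK2/3-/-, 10.86 to 11.19 in LPS-treated wt and 8.23 to 11 in LPS-treated MK2-/- BMDM. Its median log2 difference in MK2/3-/- BMDM was -2.73 against wt and 0.08 against MK2-/- BMDM. Xcr1 was well above background on 4 of the 22 arrays and the T cell marker Cd3g on 1. The part of these markers in the values above was not tested.

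**Figure D3:**
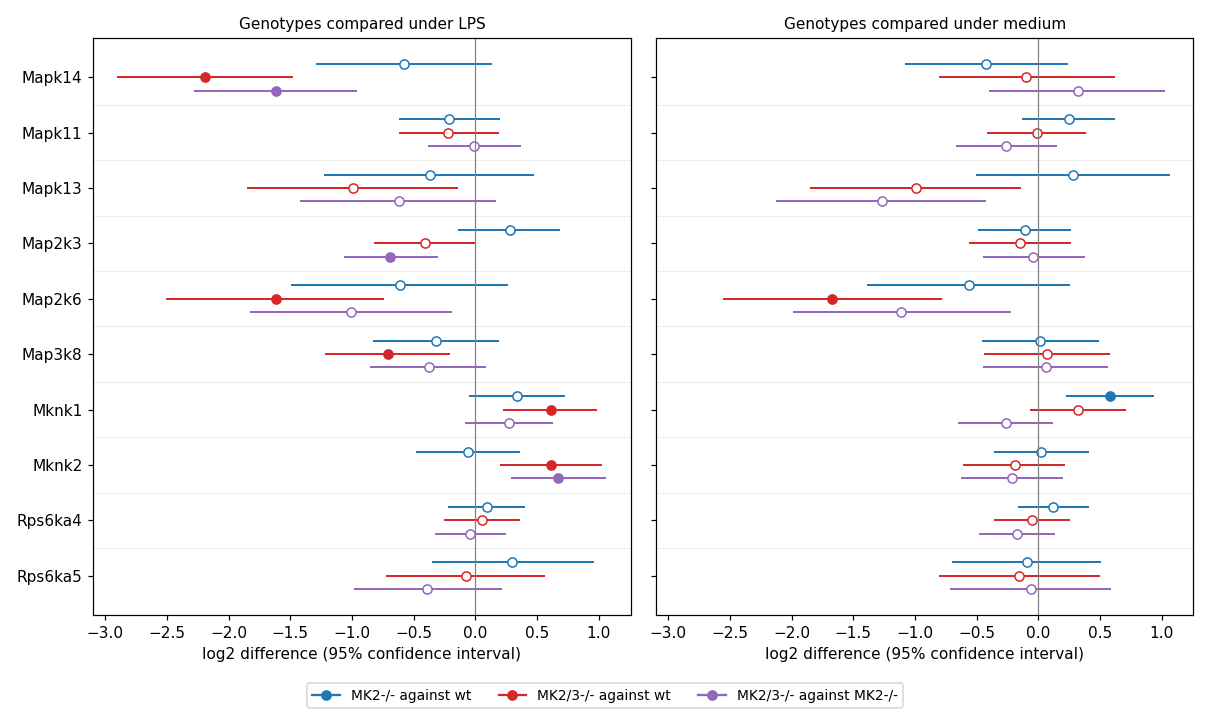
Log2 differences between genotypes under LPS (left) and in medium (right) for each member's leading probe, with 95% confidence intervals of the limma fit (filled, passed the test; open, did not). Under LPS the MK2/3-/- values of Mapk14 lie at -2.19 against wt and -1.62 against MK2-/-, while its 3 values in medium lie between -0.42 and 0.32.

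In medium, Mknk1 was higher in MK2-/- than in wt BMDM by 0.58 (SE 0.17, adjusted p = 0.0392), the only 1 of 10 to pass, where 7.95% of all probes did. The 4 MK2-/- arrays read 11.81 to 12.18 and the 4 wt arrays 11.19 to 11.61. The call was lost without any 1 of medium-treated wt replicates 1, 2 or 4 (0.56, 0.52 and 0.59) or MK2-/- replicates 1, 2 or 3 (0.51, 0.61 and 0.58), and without both low Y-linked arrays (0.58, adjusted p = 0.0756).

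Map2k6 was lower in MK2/3-/- than in wt BMDM in medium (log2 difference -1.67, SE 0.42, adjusted p = 0.0464), at 5.53 to 5.87 against 7.05 to 7.60. It was the only 1 of 10 members to pass, where 1.95% of all probes did. Here the probe was well above background on all arrays. The difference was -0.93 (adjusted p = 0.0185) with normexp and -1.13 (adjusted p = 0.0617) with 75th percentile scaling. The call was lost in 13 of the 22 fits that left out 1 array, at values of -1.77 to -1.59 and adjusted p of 0.0507 to 0.214, and was kept without each of the other 9 arrays: the 3 LPS-treated wt arrays, LPS-treated MK2-/- replicates 3 and 4, medium-treated MK2-/- replicates 2 and 3, and LPS-treated MK2/3-/- replicates 3 and 4.

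Between MK2/3-/- and MK2-/- BMDM in medium, 0 of 10 members passed in limma and in the methods' t-test, where 2.72% of all probes passed, and 2 and 3 members had an unadjusted p under 0.05. Mapk13 had the largest of these differences (-1.27, 95% interval -2.12 to -0.43, adjusted p = 0.108), with arrays at 4.49 to 5.64 against 5.93 to 6.63.

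Whether the genotypes answered LPS to different degrees was tested as the difference between LPS responses, in which an additive difference between slides cancels. MK2-/- and wt BMDM had 0 of 10 members past the test (limma), and 0% of all probes passed, with 0 members at an unadjusted p under 0.05. Between MK2/3-/- and wt BMDM, 1 of 10 members passed, where 0.984% of all probes did: Mapk14 fell further in MK2/3-/- BMDM, with a difference of -2.09 on the log2 scale (SE 0.48, adjusted p = 0.0427), which is 4.27-fold. Between MK2/3-/- and MK2-/- BMDM, 0 of 10 passed where 0.0677% of all probes did, and 4 had an unadjusted p under 0.05. Mapk14 had a difference of similar size there (-1.94, SE 0.46, adjusted p = 0.165), and it passed without LPS-treated MK2/3-/- replicate 4 (-2.26, adjusted p = 0.0301).

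The Mapk14 call against wt was near the threshold. It held in 7 of the 22 fits that left out 1 array, those without LPS-treated wt replicate 2, LPS-treated MK2-/- replicates 2, 3 or 4, medium-treated MK2-/- replicate 2, or LPS-treated MK2/3-/- replicates 3 or 4. In the other 15 the adjusted p was 0.0514 to 0.115. The value itself stayed between -2.42 and -1.74. Without the pair of MK2-/- arrays with low Y-linked signal, which belong to neither genotype compared but enter the shared estimate of the spread, it was -2.09 (adjusted p = 0.0632). For Mknk2 the smaller fall in MK2/3-/- BMDM came to 0.80 (SE 0.27, adjusted p = 0.192) against wt and 0.89 (SE 0.26, adjusted p = 0.288) against MK2-/- BMDM. For Map3k8 the smaller rise came to -0.78 (95% interval -1.48 to -0.07, adjusted p = 0.35) against wt. Neither gene passed.

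**Figure D4:**
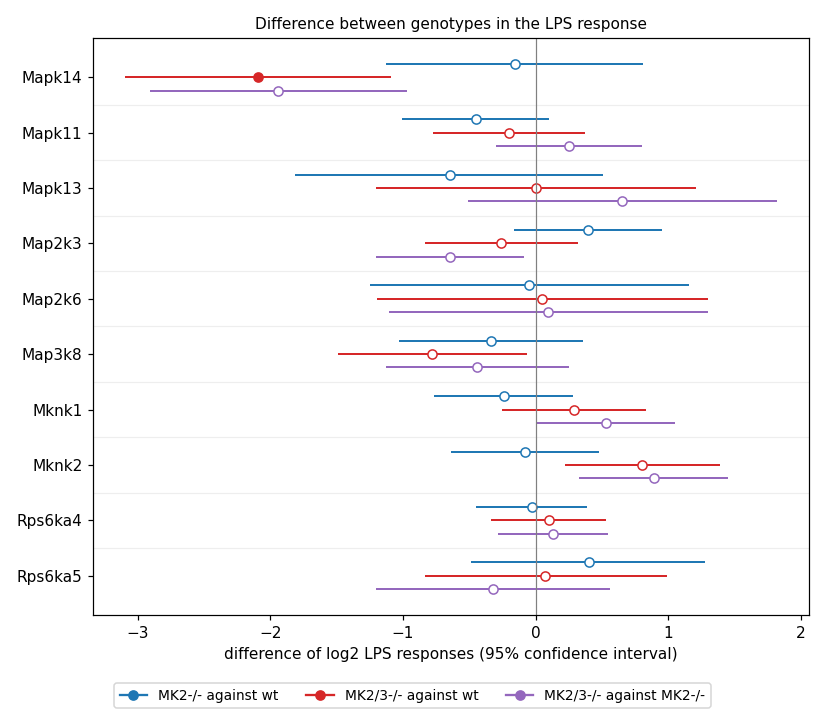
Difference between genotypes in the log2 LPS response (horizontal axis) for each member's leading probe, with 95% confidence intervals of the limma fit (filled, passed the test; open, did not). Mapk14 in MK2/3-/- against wt BMDM (-2.09) is the only filled point, and most other intervals cross 0.

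The second Mapk14 probe gave a different account of the genotypes. It carries the same RefSeq accession (NM_001168514) as the leading probe, and which part of the transcript each covers was not analysed here. With LPS it fell in each genotype: -1.89 (SE 0.29, adjusted p = 3.09e-05) in wt, -2.67 (SE 0.27, adjusted p = 1.05e-07) in MK2-/- and -2.72 (SE 0.29, adjusted p = 2.26e-07) in MK2/3-/- BMDM. In LPS-treated cells it read 6.92, 6.22 and 6.64 in wt, 6.05, 5.64, 5.19 and 5.71 in MK2-/-, and 4.60, 5.59, 5.87 and 5.65 in MK2/3-/- BMDM. On this probe MK2-/- lay below wt (-0.95, SE 0.29, adjusted p = 0.0411; without the low Y-linked arrays -0.79, adjusted p = 0.101), as did MK2/3-/- (-1.17, SE 0.29, adjusted p = 0.00707), and the knockouts did not differ past the threshold (-0.22, 95% interval -0.78 to 0.34).

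Its LPS response in MK2/3-/- BMDM differed from that in wt by -0.83 (95% interval -1.69 to 0.02, adjusted p = 0.439) and from that in MK2-/- BMDM by -0.05 (-0.88 to 0.77, adjusted p = 0.987). The probes therefore shared the fall with LPS and the lower level of MK2/3-/- than of wt BMDM with LPS, but only the leading probe set MK2/3-/- apart from MK2-/- BMDM. The difference between the probes was not tested. The second probe was more sensitive to processing: its MK2-/- value against wt was -0.38 with scaling by the 75th percentile and -0.48 with normexp, and its MK2/3-/- value -0.41 and -0.57, of which only the last passed. Its MK2-/- call was lost in 7 of the 22 fits that left out 1 array: LPS-treated wt replicates 1 (-0.78) or 3 (-0.92), LPS-treated MK2-/- replicates 2 (-0.94), 3 (-0.79) or 4 (-0.97), and medium-treated MK2/3-/- replicates 2 or 3 (-0.95 each).

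**Figure D5:**
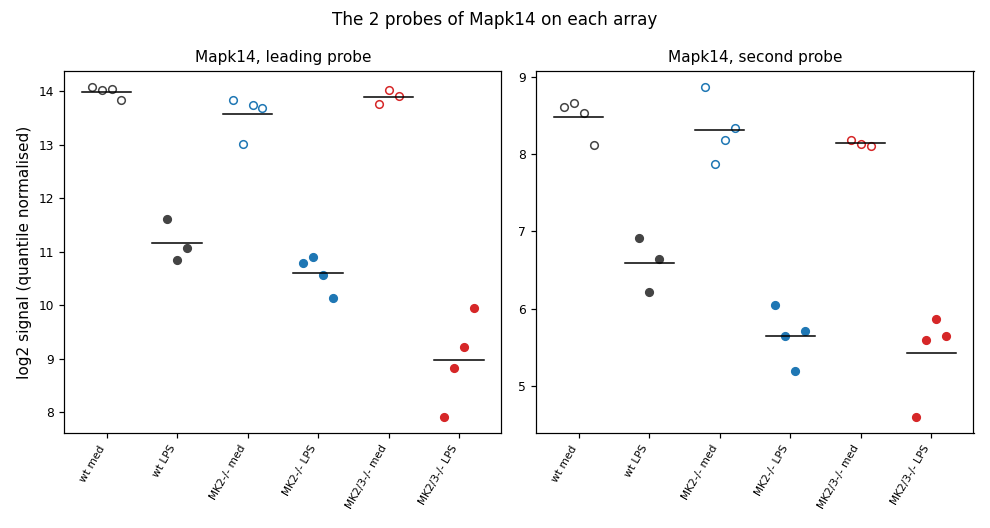
Log2 signal after quantile normalisation of the leading (left) and the second (right) Mapk14 probe on each of the 22 arrays, by genotype and treatment (med, medium; open, medium; filled, LPS; bars, group means); each panel has its own scale, and levels are not comparable between probes. The LPS-treated MK2/3-/- arrays lie below all LPS-treated MK2-/- arrays on the left, whereas on the right the groups overlap.

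Other genes of the cascade were counted by their leading probes. Of 20 tested MAP3K and scaffold genes, LPS raised 5 and lowered 7 in wt, raised 7 and lowered 8 in MK2-/-, and raised 6 and lowered 9 in MK2/3-/- BMDM, where 18.4 and 23.8%, 17.6 and 27.9%, and 20.2 and 28.5% of all probes were higher and lower. In wt BMDM, Gadd45b, which encodes an activator of the kinase MEKK4, rose by 4.52 (SE 0.33) and Gadd45a by 2.52 (SE 0.43), while Map3k1 (MEKK1, -2.59, SE 0.36) and Tab1, whose product binds TAK1 and p38α (-2.35, SE 0.23), fell. With LPS, Tab1 was lower in MK2/3-/- than in wt BMDM (-1.62, SE 0.23, adjusted p = 0.000136), as was Map3k6 (-1.64, SE 0.40, adjusted p = 0.00691). These 2 were among 5 lower and 1 higher (Taok2, 0.97, SE 0.25) of the 20, where 14.9% of all probes were lower and 8.87% higher.

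All 3 genes of the TPL2 complex list rose with LPS in wt BMDM beside Map3k8: Nfkb1, whose p105 product holds TPL2, by 2.67 (SE 0.26), Ikbkb, whose product triggers its release, by 1.94 (SE 0.17), and Tnip2 by 1.32 (SE 0.26). All 3 rose in MK2-/- and 2 of 3 in MK2/3-/- BMDM, where 18.4, 17.6 and 20.2% of all probes were higher in wt, MK2-/- and MK2/3-/- BMDM. In a list of 3 genes, 0 passed between genotypes with LPS, where 11.6 to 23.7% of all probes did. In the ERK and JNK branches, Map2k4 (MKK4, 1.89, SE 0.33) and Map2k1 (MEK1, 1.60, SE 0.18) rose and Mapk3 (ERK1, -1.23, SE 0.17) fell in wt BMDM.

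Among 4 phosphatases that act on p38, Dusp16 rose by 3.77 (SE 0.29) and Dusp1 by 3.72 (SE 0.31) in wt BMDM, and Ppm1d fell by 1.60 (SE 0.30), so that 3 of 4 passed where 42.1% of all probes did. Between genotypes, Dusp16 was lower in MK2/3-/- than in wt BMDM with LPS (-0.94, SE 0.29, adjusted p = 0.0257). Dusp10 was higher in MK2/3-/- than in MK2-/- BMDM with LPS (2.02, SE 0.51, adjusted p = 0.0137) and lower in MK2-/- than in wt BMDM in medium (-1.90, SE 0.51, adjusted p = 0.0311). Of 7 MNK and MSK substrates, Creb1 rose by 1.23 (SE 0.32) and Sfpq by 1.20 (SE 0.29), Hmgn1 fell by 1.28 (SE 0.31), and 3 rose and 1 fell in all in wt BMDM, where 42.1% of all probes passed. Between genotypes with LPS, 0 of the 7 passed, where 11.6 to 23.7% of all probes did. Across these lists, Mapkapk3, itself deleted in MK2/3-/- BMDM, was the only gene besides Mapk14 past the test for a difference in LPS response.

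Several members ran together over the 22 arrays, which share the 2 treatments. Pearson's r of Mapk14 was 0.89 with Mknk2 and with Map2k6, 0.86 with Rps6ka5, -0.87 with Map3k8 and -0.92 with Rps6ka4. The genes whose leading probes ran most like a member were Pgrmc2 (r = 0.988), Harbi1 (0.986) and Mavs (0.985) for Mapk14, Map1lc3b (0.991), Lpar6 (0.988) and Castor2 (0.987) for Mknk2, and Plagl2 (0.988), Tiparp (0.987) and Rhbdf2 (0.985) for Map3k8. Rps6ka4 ran most like Mtdh (0.976), Rps6ka5 like Csgalnact2 (0.955), Map2k6 like Fam185a (0.947) and Mapk11 like Cd2bp2 (0.930). Mknk1 had Sun5 at 0.963 and next Plcb2 at 0.850. Mapk13 and Map2k3, the members without an LPS call, had their highest values with Hdlbp (0.838) and Tspyl3 (0.762).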

How the data were processed

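RNA of 22 BMDM samples was hybridised to 1-colour Agilent mouse arrays, 1 array per sample. Per the file headers, the authors took spot signals from the scanned images with Agilent Feature Extraction 11.0.1.1. Per these headers, the deposited intensity of a spot (processed signal) is background-subtracted and not normalised between arrays. A deposited table holds the authors' log2 values, quantile-normalised and centred on the median of all samples per the methods, and served as an alternative. It correlated with the scanner values at r of 0.992 to 0.999. The probes are annotated on mm9.

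From the intensities, log2 signals were quantile-normalised over non-control spots (R 4.3.3, limma 3.58.1), outlier-marked spots were left missing and spots of a probe averaged. The filter kept the 28054 accession probes that Feature Extraction marked as well above background on 3 or more arrays, of which 23885 had a symbol through RefSeq accessions. Each array held 62976 spots. Of its 55681 non-control probes, 61.1 to 78.0% were well above background, and 0 non-control spots were saturated. Median signals were 32.7 to 108. The number of arrays limits the precision. limma was fitted to the 6 groups over all 22 arrays, with 12 comparisons, Benjamini-Hochberg adjustment over all kept probes in each and a threshold of 0.05. Each gene is given by its brightest kept probe. The script was tested on simulated data. Genes outside the members were named by fixed lists and by the largest called differences in them, and as the 3 genes of highest Pearson's r with a member. The members, lists and this rule were chosen with earlier results of these data known. Samples were grouped by their labels, and the methods describe independent experiments, but the labels do not say which animal gave which sample, so p-values measure the spread between these samples. The methods' t-test was run on the same values. Promoter windows came from a RefSeq table on GRCm38.p6. Alternatives covered scaling, background correction, filters, probe choice, arrays used, weights, replicate blocks and tests. Background correction by normexp was run on median signals, which the scanner output gives in place of mean signals. This correction and the joint omission of 3 arrays that stand apart were chosen after seeing the data. A gene of the ERK and JNK list is not reported here, so no counts are given for that list.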

Additional observations from a re-analysis of the deposited data

Results flagged for a closer look

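Among the 44 groups of 4 arrays of the 11 member probes, 3 held an array far from the others, where the gap to the nearest array, as a share of the range, was above the 95% critical value of Dixon's test, which chance alone passes in about 1 in 20 groups. In medium-treated MK2-/- BMDM, Mapk13 replicate 1 read 5.93 and the others 6.58 to 6.63, a gap of 0.931 of the range. In LPS-treated MK2-/- BMDM, Map2k3 replicate 2 read 12.13 and the others 11.59 to 11.66 (0.866), and without it the difference of MK2/3-/- from MK2-/- BMDM was -0.56 (adjusted p = 0.0635). In LPS-treated MK2/3-/- BMDM, Map3k8 replicate 2 read 12.77 and the others 12.26 to 12.29 (0.944).

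The LPS response of Mapk14 differed between MK2/3-/- and wt BMDM by -2.09 on the log2 scale (limma interaction, adjusted p = 0.0427), with responses of -4.91 and -2.82. On the second Mapk14 probe the same difference was -0.83 (adjusted p = 0.439).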

How the results depend on the processing

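Of 52 member values followed through 38 alternatives, 0 changed direction. Of the 25 called LPS effects, 18 kept their call throughout, and the others lost it mainly when at least a 2-fold change was asked for. Direct genotype comparisons depended more on the settings. Counts are of the 10 members. Between MK2/3-/- and wt BMDM with LPS (5 called), 3 passed with 75th percentile scaling, 3 with array weights, 2 with at least 2-fold, 1 when fitted on only the groups compared and 0 in the methods' t-test. Between MK2/3-/- and MK2-/- BMDM with LPS (3 called), 1 passed with at least 2-fold, and 0 on only the groups compared or in the t-test. Between MK2-/- and wt BMDM with LPS (0 called), 1 passed when each gene was given by its most induced probe in wt, which takes the second Mapk14 probe. In MK2-/- BMDM, 5 LPS effects passed with at least 2-fold (8 called). In medium, the 1 call of MK2-/- against wt went to 0 with 75th percentile scaling, on only the groups compared, in the t-test, with at least 2-fold, and without the low Y-linked arrays, with or without medium-treated wt replicate 4. The 1 call of MK2/3-/- against wt in medium went to 0 with 75th percentile scaling, in the authors' values, without the filter on dim probes, and without those arrays (both ways). Between MK2/3-/- and MK2-/- in medium (0 called), array weights gave 2. For LPS responses, the 1 call of MK2/3-/- against wt went to 0 with 75th percentile scaling, all non-control probes, the most induced probe, only the groups compared, and without those arrays (both ways), and array weights gave 1 for MK2/3-/- against MK2-/- (0 called). The cause was not tested.

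Leaving out each array in turn gave 7 to 8 LPS calls in each genotype, 0, 2 to 6 and 2 to 3 calls with LPS for MK2-/- against wt, MK2/3-/- against wt and MK2/3-/- against MK2-/-, 0 to 1, 0 to 1 and 0 in medium, and 0, 0 to 1 and 0 to 1 for LPS responses. Same-numbered samples deviated together (r over 0.1) in 7 of 10 pairs, the lowest at -0.075, and other-numbered ones in 5 of 30, the lowest at -0.332. The labels give the same age in 8 of the 10 same-numbered pairs. Samples that share a letter in the array name had the same age in all 10 pairs. Of these pairs 7 deviated together, and 5 of 30 with other letters. Since the labels do not say which samples share an animal, the fit reported left samples unpaired. Blocks by number and by letter were run as alternatives. With the block by number the count stayed at 5 for MK2/3-/- against wt with LPS and no member's call changed. The Mapk14 response difference was then -2.13 (adjusted p = 0.0231). With the block by letter it was -2.11 (adjusted p = 0.0221). Over all probes, the count for MK2/3-/- against wt with LPS ran from 280 in the t-test to 9713 with 75th percentile scaling (6662 in the fit reported), that in medium from 21 without medium-treated MK2/3-/- replicate 1 to 4744 with that scaling (548), and that of the LPS responses from 28 without medium-treated MK2/3-/- replicate 2 to 763 without LPS-treated replicate 4 (276). With that scaling the share of calls that were higher for MK2/3-/- against wt with LPS moved from 37.3 to 55.8%, and for MK2-/- against wt from 36.0 to 62.7%. With LPS, Map2k6 was well above background on 1 of 4 MK2/3-/- arrays, which limits its values there.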
